A study of Marchantia polymorpha with 6 samples.

Results

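The outer megabases of the 8 autosomes of the liverwort Marchantia polymorpha are described here as the annotation of the male reference line Tak-1 gives them. A gene or a copy of a transposable element belonged to an end when it lay wholly within the first or the last 1 Mb of an autosome, and a chromosome was measured to the last base of its last annotated feature. The 16 ends held 1318 of the 19105 autosomal genes (6.90%) and 6460 of the 78879 autosomal element copies (8.19%), on 7.68% of the 208 Mb of autosomes. The files as a whole list 19441 genes and 89262 element copies. A further 5 genes and 4 copies lay across a boundary and were counted on neither side. The end that begins at base 1 is called the low end and the other the high end. They held 642 and 676 genes. Whether the assembled sequence reaches the telomere at any end was not examined.

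The series set out to compare RNA of 14-day thalli, the flat haploid body of the plant, between the wild-type line Tak-1 (3 libraries) and Mpmet-3 (3 libraries), a mutant of MpMET. MpMET is the liverwort counterpart of the enzyme that maintains CG methylation in flowering plants. Both deposited files were annotations of the genome MpTak1 v5.1 revision 2, and neither held a value of any library. No result below therefore measures an effect of the mutation, and the depth of the libraries is unknown.

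Chromosome ends of plants carry short telomeric repeats, and the DNA next to them is often rich in repeated sequence that differs between ends. Transposable elements are DNA that can copy or move itself. Among them, LTR retrotransposons such as Gypsy and Copia and the LINE elements move through an RNA copy, and DNA transposons such as the Mutator group (coded DTM) or Tc1/Mariner (DTT) move as DNA. Flowering plants silence many of them by DNA methylation, the process in which MET takes part.

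The outer megabases carried fewer protein-coding genes than the rest of their own chromosomes. On each of the 8 autosomes the value for both ends together lay below that for the rest. The ends had 74.3 ± 8.40 coding genes per Mb (SD, n = 8 chromosomes) and the rest had 87.9 ± 2.73, a difference of -13.6 ± 9.62. This was the smallest p that 8 pairs allow in an exact 2-sided sign-flip permutation test, 0.00781. Adjusted by Benjamini-Hochberg over the 14 measures tested, it was 0.109 and missed the threshold of 0.05. A single measure at the smallest p cannot pass over 14, since at least 3 would have to reach it together, or more at larger p. None of the 14 measures passed after adjustment, and 1 of the 14, this one, had an unadjusted p under 0.05. The chromosomes belong to 1 annotated genome, so these p-values say nothing of variation between plants.

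Elements covered 26.0% ± 4.08 (SD, n = 8) of the ends and 23.7% ± 2.90 of the rest. The value was higher at the ends on 6 of 8 chromosomes, and the difference of 2.28 ± 5.46 percentage points was within its spread (exact permutation, adjusted p = 0.594). Without chromosome 1 it was 0.799 points. All genes together, with and without a coding sequence, numbered 82.4 ± 11.95 per Mb at the ends and 92.3 ± 2.62 in the rest (n = 8, lower on 6 chromosomes, exact permutation, adjusted p = 0.273). The median gap between neighbouring genes was 4912 ± 1092 bp at the ends and 4044 ± 259 bp in the rest, wider on 6 of 8 chromosomes (exact permutation, adjusted p = 0.273).

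Taken end by end, 14 of 16 ends had fewer coding genes per Mb than the rest of their chromosome. The exceptions were the high ends of chromosomes 4 and 7. Coding genes per end ran from 49 through a median of 76 to 93, and all genes from 50 through 80.5 to 124. Element cover ran from 10.98% through 26.7% to 33.1% and was above the rest at 10 ends. Gypsy cover was above the rest at 8 ends. Set against the 187 whole 1 Mb windows of the interiors, which held 35 to 136 genes with a median of 94, 12 ends lay below the median window of their own chromosome. In cover, where the windows ran from 8.72% to 74.4%, 11 ends lay above that median.

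**Figure D1:**
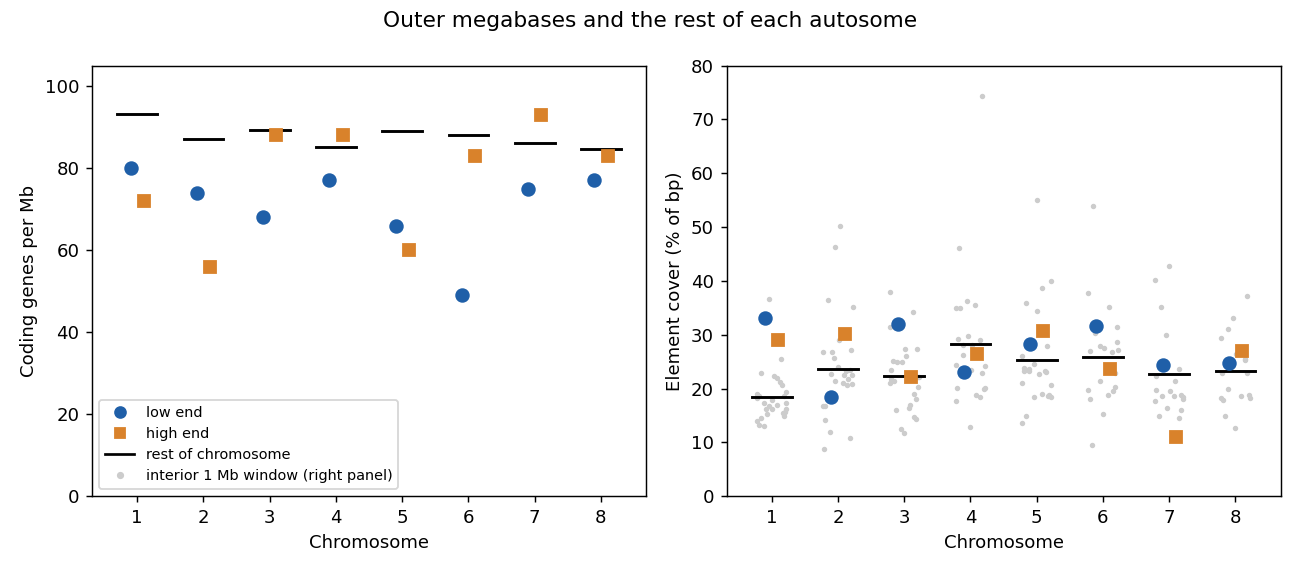
Left, coding genes per Mb of the low end (circles) and high end (squares) of each autosome, with a bar for the rest of that chromosome; 14 of the 16 symbols lie below their bar. Right, element cover in percent of bp with the same symbols and, as grey dots, the 1 Mb windows of the interior, which spread from 8.72% to 74.4% and wider than the ends.

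Chromosome 1 had the end with most genes. Its low end held 124 genes, more than any of the 28 interior windows, but 80 of them coded for protein and 44 did not, and elements covered 33.1%. Its high end held 72 coding genes with a cover of 29.1%, and Gypsy alone covered 19.1%, the highest Gypsy value among the 16 ends. The rest of chromosome 1 had 93.2 coding genes per Mb and a cover of 18.5%, so both of its ends were poorer in coding genes and richer in elements.

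On chromosome 2 the ends differed from each other. The low end held 74 coding genes under a cover of 18.4%. The high end had 56 coding genes, no gene without coding sequence, and a cover of 30.2%. The rest of that chromosome lay at 87.2 coding genes per Mb and 23.7%. Genes at the high end were spaced by a median gap of 9295 bp, the widest of all ends.

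Chromosome 3 showed the opposite order of ends. Its low end had 68 coding genes and a cover of 32.0%, its high end 88 coding genes and 22.2%, and the rest 89.4 per Mb and 22.3%. The low end also carried the most element copies, 557.

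On chromosome 4 both ends had less element cover than the interior. Cover was 23.0% at the low end and 26.4% at the high end, against 28.3% in the rest. The low end held 77 coding genes and the high end 88, against 85.2 per Mb in the rest.

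Chromosome 5 was poor in coding genes at both ends, with 66 at the low end and 60 at the high end against 89.1 per Mb in the rest. Cover was 28.3% and 30.8% there and 25.3% in the rest. The high end held the largest number of family labels of any end, 204, and genes spanned 21.4% of it, the smallest share of any end.

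Chromosome 6 had the end with fewest genes. The 50 genes of its low end, 49 of them coding, were fewer than in any of the 21 interior windows of that chromosome, under a cover of 31.6%. The high end held 83 coding genes and a cover of 23.6%, close to the rest with 88.1 per Mb and 25.8%.

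The high end of chromosome 7 had the fewest element bp of any end. Its cover of 10.98% was below all 19 interior windows, Gypsy held 5.34%, and no copy there was found by structure. It carried 93 coding genes, the most of any end, against 86.1 per Mb in the rest. The low end had 75 coding genes and a cover of 24.3%, and the rest a cover of 22.7%.

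Both ends of chromosome 8 had slightly fewer coding genes and more element bp than its interior. There were 77 coding genes at the low end and 83 at the high end, against 84.8 per Mb in the rest. Cover was 24.8% and 26.9%, against 23.2%. Structure-based copies, whose identifiers mark them as found by their structure, held 26.1% of the element bp at the low end, the highest share of the 16.

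The drop in coding genes was steepest in the outermost 100 kb. That step held 4.31 ± 2.55 coding genes (SD, n = 16 ends), against 6.88 ± 3.01 in the next 100 kb and 9.25 ± 3.11 between 700 and 800 kb. The course was not smooth, with 6.25 ± 4.22 between 300 and 400 kb and 7.25 ± 3.02 between 900 and 1000 kb. The 16 outermost steps ran from 0 through a median of 4.5 to 9 coding genes. The low end of chromosome 1 and the high end of chromosome 4 had none there, and 8 ends had under 5. With the outermost 200 kb left out, an alternative chosen after the data were seen, the ends still had fewer coding genes per Mb (78.6 against 87.9), and the unadjusted p of the exact permutation test rose to 0.0781.

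Elements followed the reverse course over the outermost 300 kb. Cover was 39.9% ± 23.8 (SD, n = 16) in the outermost 100 kb, with values from 4.48% to 91.3%. It was 28.9% ± 19.6 in the next step and 20.3% ± 14.2 in the step after that. Further in it was uneven, with 33.1% ± 20.5 between 300 and 400 kb and 28.0% ± 20.6 between 900 and 1000 kb. Elements placed in no class accounted for much of the cover nearest the end. They covered 18.1% ± 18.7 of the outermost 100 kb, 6.05% ± 13.8 of the next and 2.0% ± 1.73 of the step after that. The medians of these steps were 12.3%, 1.97% and 1.30%, and the highest value in the second step was 57.0%. Gypsy cover in the outermost 100 kb, 11.1%, lay within the range of the steps further in.

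**Figure D2:**
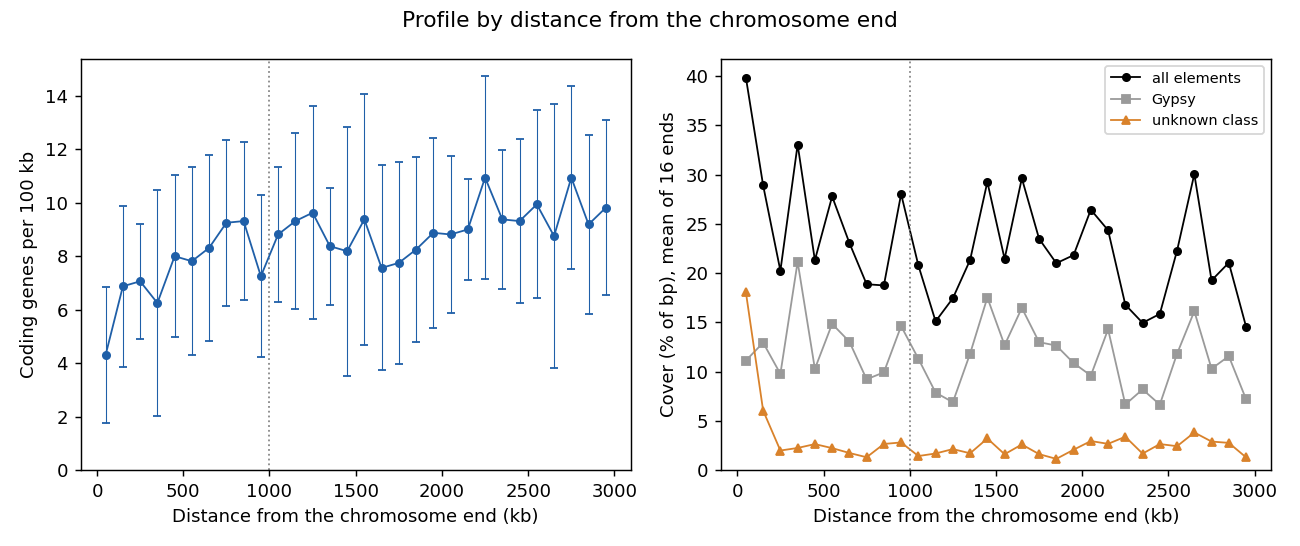
Mean over the 16 ends in steps of 100 kb, plotted against the distance from the chromosome end in kb, with the 1 Mb boundary dotted. Left, coding genes per step with SD, 4.31 in the first step and 6.88 in the second; right, cover in percent of bp for all elements, Gypsy and elements of unknown class, the last falling from 18.1% to 6.05% and then 2.0%.

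The outermost annotated feature was an element at 14 of 16 ends. Since a chromosome was measured to its last feature, a distance of 0 bp at a high end is partly given by that choice. At 9 ends the outermost element was of unknown class. Family TE_00000155 was outermost at the high ends of 2 and 7 and the low ends of 6 and 8, and TE_00000015 at the high end of 1 and the low end of 2. TE_00000094, TE_00000006 and TE_00000002 were outermost at the low end of 1, the high end of 3 and the high end of 5. Gypsy family TE_00000762_LTR ended the high ends of 4, 6 and 8. The remaining outermost elements were the Copia part TE_00000545_INT at the low end of 3, the LINE TE_00000250 at the low end of 4, TE_00000846_LTR at the low end of 5, and TE_00001162, a Mutator-group element, at the low end of 7.

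The outermost gene was a coding gene at 6 ends. They were Mp2g26830 (18252 bp from the high end of 2), Mp3g00010 (6390 bp from the low end of 3), Mp6g00010 (35404 bp, low end of 6), Mp7g19740 (8733 bp, high end of 7), Mp8g00010 (12380 bp, low end of 8) and Mp8g19040 (8887 bp, high end of 8). Mp3g00010 was paired with the symbol MpWRKY1, a member of the WRKY transcription factors of plants, and was the coding gene nearest to any end, at chromosome 3, bases 6391 to 11677 on the minus strand. At the other 10 ends a gene without coding sequence came first. These were Mp1g00005a, Mp1g29835a, Mp2g00015a, Mp3g25515i, Mp4g00005a, Mp4g24145h, Mp5g00005a, Mp5g24575a, Mp6g21535b and Mp7g00005a. Over all ends the first coding gene lay from 6390 bp through a median of 36460.5 bp to 232547 bp inward, the last being Mp1g00070 at the low end of chromosome 1.

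A larger share of the genes without coding sequence than of the coding genes lay at the ends. The ends held 129 of the 971 on the autosomes (13.3%) and 1189 of the 18134 coding genes (6.56%). As a share of genes they made up 9.23% ± 6.71 of the ends and 4.80% ± 1.63 of the rest (SD, n = 8, higher on 6 chromosomes, exact permutation, adjusted p = 0.273). Without chromosome 1 the difference fell from 4.42 to 1.79 percentage points. Without the outermost 200 kb the direction turned, with 4.25% at the ends. The numbers were uneven, with 44 at the low end of 1, 16 at the high end of 3, 13 at the high end of 4, none at the high end of 2, and from 1 to 9 at each other end. On the low end of chromosome 1, 41 of the 44 lay outside the first coding gene, within the first 163825 bp.

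Most of these genes lay inside annotated elements, chiefly at a few ends. Elements held at least 50% of the exonic bp in 86 of the 129, and 84.3% of their summed span fell in the 12 families with the largest shares of copies at the ends. Of the 86, 41 lay at the low end of 1, 13 at the high end of 3 and 13 at the high end of 4. Each other end had 0 to 4, and at the low end of 8 it was 0 of 9. Among coding genes of the ends, 25 (2.10%) were covered by elements over 50% or more of their exons, against 578 of 16940 (3.41%) in the rest. The 10 genes of the ends with most exonic element bp all lacked a coding sequence, had a single exon, and spanned 2007 to 2013 bp. Mp3g25515d (chromosome 3, bases 27120715 to 27122727, minus strand) came first with 1867 bp in elements, 92.7% of its exon. Mp2g00015b, Mp1g00015d, Mp1g00045e, Mp4g24145a, Mp4g24145e, Mp1g00055b, Mp6g21535a, Mp1g00035e and Mp1g00035h followed with 1866 down to 1861 bp.

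Several spans recurred among these genes. Sorted by span and split where neighbouring values differed by more than 5 bp, the 129 genes gave 6 ranges with at least 10 genes, a grouping made after the values were seen. Genes of 71 to 74 bp and of 81 to 87 bp were mostly in the interiors, with 20 at the ends and 458 in the rest, and 13 and 122. The other 4 ranges had more genes at the ends than in the rest of the autosomes. The ranges were drawn from genes of the ends alone, and a span common only in the interiors could form none. This choice favours higher counts at the ends. Spans of 118 to 120 bp occurred in 24 genes there and 6 in the rest, and spans of 158 to 160 bp in 18 and 1. The ranges 1819 to 1820 bp and 2007 to 2013 bp had 13 and 12 genes at the ends and 0 in the rest of the autosomes. In all, 67 of the 129 genes fell in these 4 ranges. On V they held 13, 10, 8 and 10 genes, in order of length, and on unplaced sequences 22, 27, 21 and 15, so in each range V and the unplaced sequences together held more genes than the autosome ends.

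Genes of these 4 ranges mostly followed the same order along their strand. A gene of 1819 to 1820 bp was followed by one of 158 to 160 bp in 12 places at 3 ends, with a gap of 1144 to 1149 bp in each. In 7 places at 3 ends the next gene was one of 2007 to 2013 bp, after a gap of 1797 to 1801 bp. From there a gene of 118 to 120 bp followed in 10 places at 4 ends, after 1923 to 1994 bp. The step from there to a gene of 1819 to 1820 bp occurred in 7 places at 3 ends and had more varied gaps, 6700 to 10912 bp. The exceptions were a pair of genes of 118 to 120 bp, a pair of 158 to 160 bp and a gene of 1819 to 1820 bp followed by 1 of 81 to 87 bp, each in 1 place. Their gaps were 2487, 3123 and 570727 bp. The next gene in this count was thus not always the adjacent gene. The files give these genes no name, and none is given here. What these genes are was not tested, nor whether the element labels over them mark transposable elements.

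A small group of element families had a large share of its autosomal copies at the ends, and several of them were also common outside the autosomes. Of the 615 families found there, 74 had 20 or more copies at the ends, and the 5 with the largest share are named by rule. TE_00000155, of unknown class, had 63 of its 95 autosomal copies at the ends (66.3%), spread over 14 ends, with 1 to 9 copies at each. Of these, 60 lay in the outermost 100 kb, at a median of 17619 bp from the end. The ends with none were the low ends of chromosomes 1 and 3. On all autosomes 8.19% of copies were at ends, for comparison.

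TE_00000060, also of unknown class, had 28 of 44 copies at the ends (63.6%), at 10 ends, and 25 of the 28 in the outermost 100 kb. The inner part of a Gypsy element, TE_00000630_INT, had 36 of 62 (58.1%) at 12 ends. TE_00000002 had 40 of 75 (53.3%) at 9 ends, 15 of them at the low end of 1. The Mutator-group family TE_00000413 differed from these in how it was spread. It had 29 of 50 copies at the ends (58.0%), but 26 of the 29 lay at the high end of chromosome 8 and none in the outermost 100 kb of any end.

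Next in share came the LINE family TE_00000250 with 28 of 54 copies (51.9%), 20 of them at the low end of chromosome 8, where the outermost lay 656360 bp from the end. TE_00000006 followed with 54 of 108, TE_00000015 with 59 of 125, TE_00000094 with 29 of 62 and TE_00000004 with 30 of 69. TE_00000134 had 20 of 76, 10 of them at the low end of 3, and the Gypsy part TE_00001110_INT had 122 of 541.

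These shares count autosomal copies alone. TE_00000155 had 3 copies on V and 0 on unplaced sequences, and TE_00000413 had 0 on both. By contrast, TE_00000002 had 17 and 55, TE_00000006 had 27 and 76, and TE_00000015 had 39 and 81, in each case together more than at the autosome ends. The same held for TE_00000060 with 14 and 24, TE_00000094 with 16 and 28, and TE_00000004 with 15 and 26. It also held for TE_00000134 with 44 and 0, and TE_00001110_INT with 193 and 9. TE_00000630_INT had 11 and 25, together as many as its 36 at the ends, and TE_00000250 had 2 and 4, fewer than at the ends. Which chromosome the unplaced sequences belong to was not examined.

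**Figure D3:**
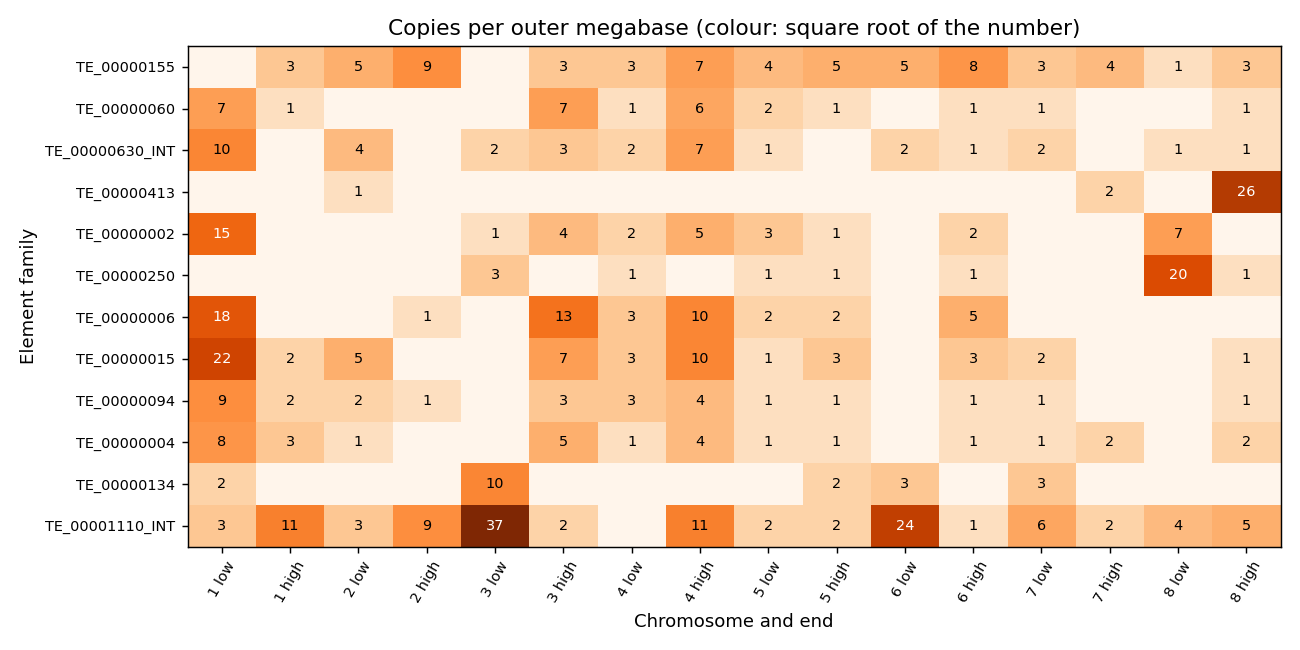
Copies in each of the 16 outer megabases for the 12 families with the largest share of autosomal copies at the ends, with the number written in each cell and colour by its square root. TE_00000155 is present at 14 ends with at most 9 copies, whereas TE_00000413 has 26 of its 29 end copies at the high end of chromosome 8 and TE_00000250 has 20 of 28 at the low end of 8.

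Leaving out TE_00000413, TE_00000134 and TE_00001110_INT, the 9 other families, a set chosen after the values were seen, had 694 autosomal copies. Of these, 367 (52.9%) lay at the ends and 311 (44.8%) in the outermost 200 kb, which make up 1.54% of the autosomes. The families were ranked by their share at the ends, so a high share there follows from the choice. The families left out had 0 of 29, 6 of 20 and 18 of 122 end copies in the outermost 100 kb, in the order named. Leaving them out favours a higher share near the end, although TE_00000250, with 3 of 28, was kept. Neither share therefore tests where such families lie. Copies of the 9 families covered 126 kb at the low end of 1, 52.9 kb at the low end of 8, 51.6 kb at the high end of 4 and 45.8 kb at the high end of 3. The high end of 7 had least, 2.89 kb. At the low end of chromosome 3 no copy lay in the outermost 200 kb, and at the low end of 8, where the LINE copies lie further in, 2 did.

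Of these 9 families, 6 often lay side by side. Copies of TE_00000094 and TE_00000630_INT were neighbours within 200 bp in 22 places at 9 ends and in 3 places elsewhere on the autosomes. TE_00000002 and TE_00000006 adjoined in 21 places at the ends and 1 elsewhere, TE_00000004 and TE_00000094 in 21 and 2, and TE_00000015 and TE_00000630_INT in 21 and 0. No such pair at the ends involved TE_00000155, and 1 involved TE_00000060. At each of the 10 ends with TE_00000060, however, its outermost copy lay a little outside the outermost copy of TE_00000004. Their distances were 131 and 845 bp at the low end of 7, and 14068 and 14786 bp at the high end of 6. The low count therefore does not mean that TE_00000060 lay apart from the 6. Copies of neighbouring labels are therefore not independent of each other.

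**Figure D4:**
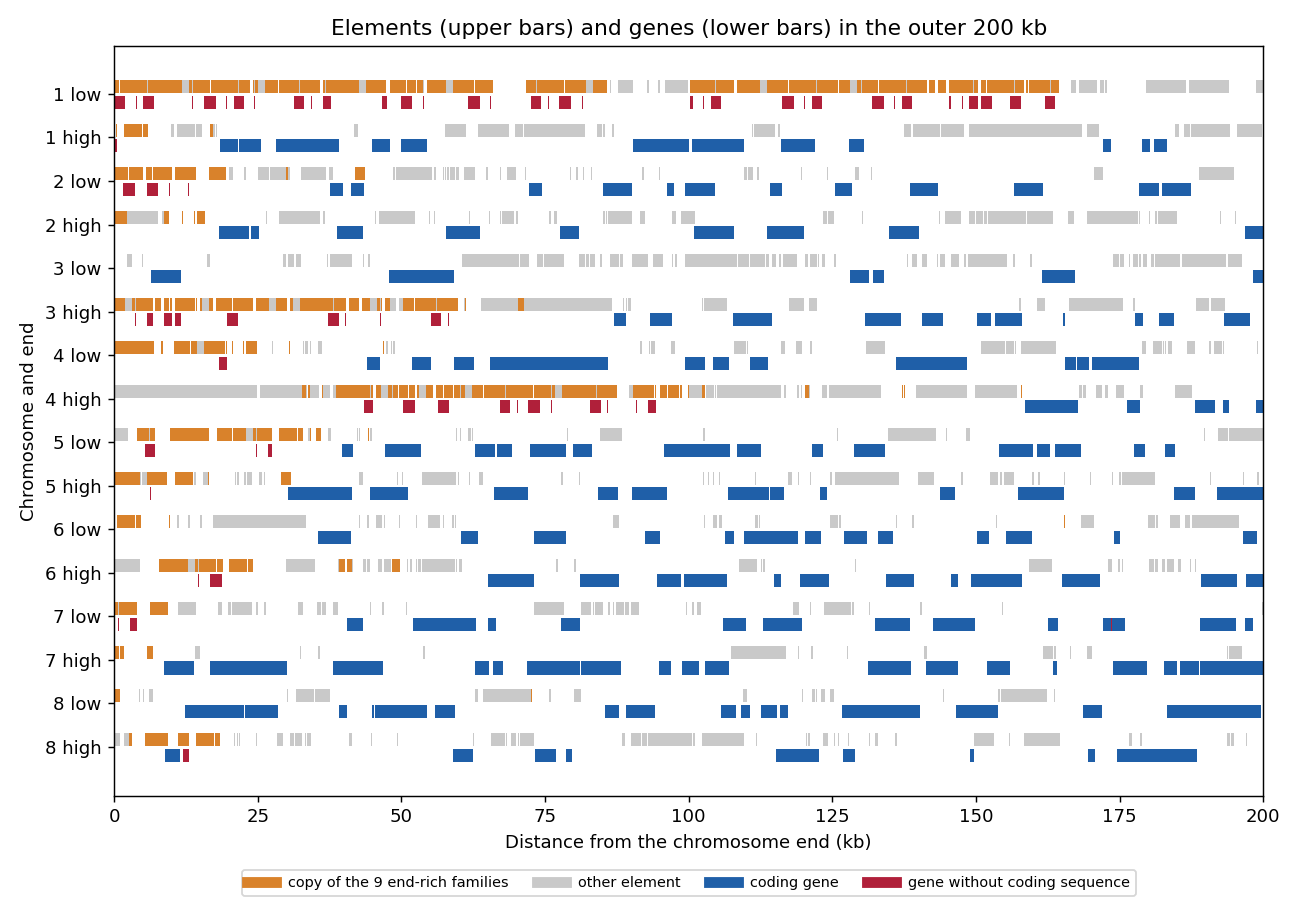
Map of the outermost 200 kb of each end, by distance from the end in kb, with elements above and genes below; orange marks the 9 families that had 367 of their 694 autosomal copies at the ends. Orange copies and genes without coding sequence fill the low end of chromosome 1 up to about its first 163825 bp and part of the high ends of 3 and 4, and the low end of chromosome 3 shows no orange copy.

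By bp, the ends were made of the families common everywhere. The Gypsy repeat TE_00001068_LTR led with 305 copies at all 16 ends, 7.41% of its autosomal copies, and 2.47% of the bp against 2.82% in the rest. TE_00000762_LTR had 110 copies (6.60%) at all 16 ends. TE_00000842 had 26 copies (8.72%), all structure-based with a median length of 6062 bp, and none in the outermost 100 kb. TE_00001156_LTR, an LTR family of no superfamily, had 93 copies (10.5%) at 15 ends.

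TE_00001110_INT, the inner part of a Gypsy element, was also among the 5 families with most bp at the ends. It covered 0.972% of the ends and 0.317% of the rest and was higher at the ends on 8 of 8 chromosomes (exact permutation, adjusted p = 0.0744). Its copies ran from 0 at the low end of 4 to 24 at the low end of 6 and 37 at the low end of 3. Of the 162 families with at least 100 autosomal copies, 0 passed an adjusted p of 0.05 (0%), while 47 had an unadjusted p under 0.05, 18 of them higher and 29 lower at the ends. A call over 162 families needs at least 26 of them at the smallest p of 0.00781, which 17 reached, or still more at larger p, so the 0 says little. Most of the 12 families with the largest shares at the ends had too few copies to enter that test. TE_00000015 entered it, with 0.534% against 0.00758% and higher on 7 of 8 chromosomes (exact permutation, adjusted p = 0.0904). TE_00000006 covered 0.300% against 0.0141% and was higher on 5 and lower on 3 (exact permutation, adjusted p = 0.172).

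Among the 17 superfamilies, 3 of 17 (17.6%) passed an adjusted p of 0.05, all of them lower at the ends. Each had the smallest possible p, and a call over 17 superfamilies needs at least 3 at that p, or more at larger p. Alone, DTT would have had an adjusted p of 0.133, so its call rests on the other calls. DTT, the Tc1/Mariner group of DNA transposons, covered 0.136% ± 0.101 of the ends and 0.303% ± 0.0619 of the rest (SD, n = 8), lower on 8 of 8 chromosomes (exact permutation, adjusted p = 0.0443). There were 39 copies at the ends, where their share of the length would give 57.8, with a median length of 209 bp against 681 bp elsewhere. Per end the copies ran from 0 through a median of 2 to 6.

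The other calls were of rare elements. DTH, the PIF/Harbinger group, had none of its 74 autosomal copies at the ends, where their length would give 5.68. Elements labelled TIR/Tc1_Mariner had 1 of 45, where length would give 3.46 (exact permutation, adjusted p = 0.0443 for both). A rare superfamily absent from the ends is lower there on every chromosome that carries it, whatever its placement. Assignment by midpoint and leaving out the outermost 200 kb kept all 3 calls (adjusted p = 0.0443). None held when an end was taken as 500 kb (adjusted p of 0.133 for DTT, 0.0664 for DTH and 0.0664 for TIR/Tc1_Mariner) or as 2 Mb (0.133, 0.354 and 0.651). The DTT difference itself was -0.167 percentage points as reported, -0.136 with 500 kb and -0.200 with 2 Mb, the last again at the smallest p.

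Several abundant superfamilies differed by less than their spread over chromosomes. Elements of unknown class covered 4.18% ± 2.01 of the ends and 2.82% ± 0.481 of the rest, higher on 7 of 8 chromosomes (exact permutation, adjusted p = 0.171). With the outermost 200 kb left out, the difference turned to -0.603 percentage points (exact permutation, adjusted p = 0.0531). Copia covered 2.42% ± 0.786 against 1.92% ± 0.304 (adjusted p = 0.299 by the same exact test). Gypsy, the largest, covered 12.7% ± 2.28 against 12.2% ± 1.81 (adjusted p = 0.899). LTR elements of no superfamily covered 3.40% against 4.03% (adjusted p = 0.443).

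LINE elements, which carry no long terminal repeats, had 40 of their 112 autosomal copies at the ends (35.7%). They covered 0.569% ± 0.908 of the ends and 0.0587% ± 0.0520 of the rest and were higher on 5 of 8 chromosomes (exact permutation, adjusted p = 0.171). The low end of chromosome 8 alone held 20 copies and 5.09% of its bp, while 7 ends held none and the others from 1 to 6 copies.

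**Figure D5:**
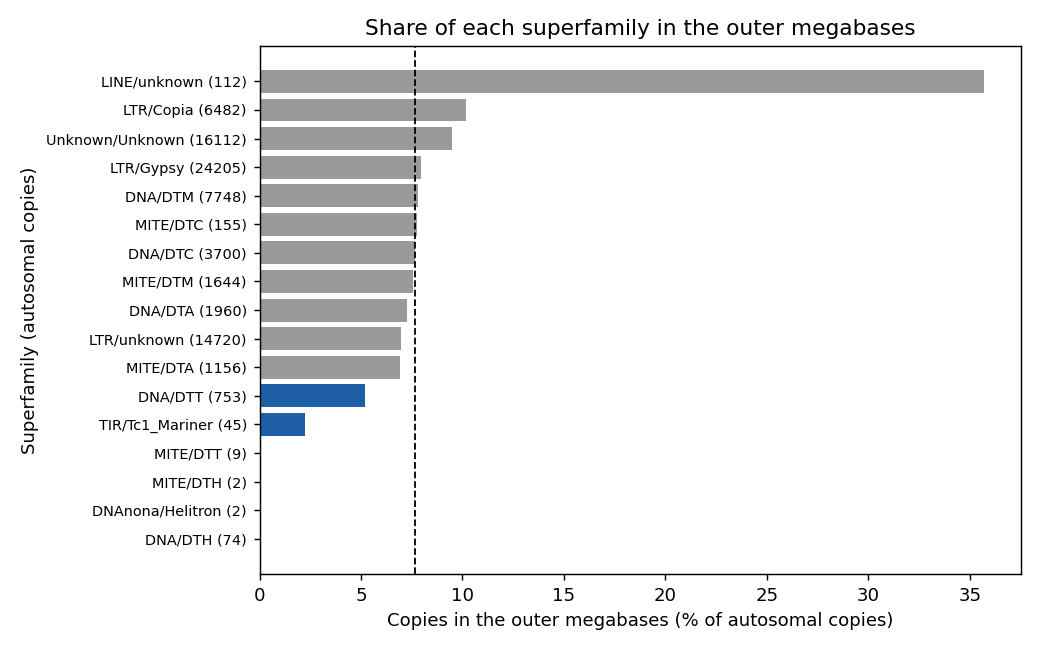
Percent of the autosomal copies of each superfamily that lie in the outer megabases, with the number of autosomal copies in brackets and a dashed line at 7.68%, the share of autosomal length. Blue marks the 3 superfamilies lower at the ends at an adjusted p under 0.05, of which DTH, at 0%, shows no bar, as do 3 superfamilies with 2 to 9 copies; LINE elements stand highest at 35.7%.

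No measure of coding gene structure passed the threshold between ends and interiors. The median span was 3062 ± 373 bp at the ends and 3032 ± 258 bp in the rest (SD, n = 8, exact permutation, adjusted p = 0.969). Coding genes had 5.46 ± 0.660 exons at the ends and 5.31 ± 0.408 in the rest, and a median coding length of 949 ± 78.9 and 950 ± 54.4 bp. Single-exon genes were 21.1% ± 5.13 and 23.2% ± 2.05 of coding genes. An element lay within 1 kb upstream of 17.2% ± 7.09 of genes at the ends and 14.5% ± 1.85 in the rest. The share of coding genes transcribed toward the end ran from 43.1% through a median of 50% to 59.0%.

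Nearer to the end some of these differences were larger. With an end taken as 500 kb, the median span was 3460 bp against 3016 bp, a difference of 443.5 bp (exact permutation, p = 0.0234, adjusted p = 0.0820). Exons per coding gene were 6.002 against 5.29, a difference of 0.708 (exact permutation, p = 0.0156, adjusted p = 0.0820). The share of genes with an element upstream was 24.0% against 14.4%, a difference of 9.62 points against 2.70 with 1 Mb, which was 0.491 without chromosome 1.

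Some end genes were large. The 10 longest spanned 16624 to 24640 bp. Mp5g24460 (symbol Mpsnf1.17; chromosome 5, bases 26577384 to 26602023, minus strand) was first with 24640 bp, 34 exons and 618 bp of element in its introns. Mp2g00350 (22543 bp), Mp6g21090 (22315 bp), Mp7g00250 (20667 bp, 49 exons) and Mp4g00040 (20526 bp) followed. Mp4g00040, with the symbol Mp1R-MYB20, had the longest coding sequence of the 10, 8724 bp. The others were Mp2g00410, Mp2g00710 (MpBromo4), Mp8g18560 (MpASHH3, a symbol of the SET-domain histone methyltransferases of Arabidopsis), Mp8g18570 (MpMAPKKK26, a kinase kinase kinase symbol) and Mp6g00250. In 9 of the 10 no exonic base lay in an element, and MpBromo4 had 28 such bp.

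Symbols were paired to 201 genes of the ends, 7.03% of the 2860 on the autosomes. A symbol rests on a shared locus number and a gene length within 5%, in an annotation of the female line, and not on sequence. Of the symbol stems, 18 occurred 3 or more times at the ends, with 82 genes in all. AMT, the symbol of ammonium transporters, which carry ammonium across membranes, had the largest share of these stems. Of the 12 autosomal genes paired with an AMT symbol, 9 lay at the ends (75.0%), and AMT genes left unpaired are not counted.

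A run of 7 of these AMT genes lay at the high end of chromosome 8. MpAMT2.8 (Mp8g18430) began at base 20561628 and MpAMT2.4 (Mp8g18510) ended at base 20617450, with MpAMT2.9, MpAMT2.10, MpAMT2.6, MpAMT1 and MpAMT2.5 between them. The run took up 55.8 kb and 9 genes, 697102 to 750556 bp from the end. Elements covered 7.31% of it, and none of the 7 had an element in its exons, its introns or the 1 kb upstream. Of the 7, 6 were on the plus strand, and MpAMT2.9 on the minus strand. The other end members were MpAMT2.1 at the low end of 2 and MpAMT1.8, a single-exon gene with 77 exonic bp in elements, at the low end of 8.

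GH, the symbol of glycoside hydrolases, which cut sugar chains, had 9 of 126 at the ends. MpGH16.27, MpGH16.28, MpGH16.29 and MpGH16.30 lay close together at the low end of chromosome 4, between bases 885519 and 908571, and elements held 15.4%, 99.7%, 57.8% and 41.7% of their exonic bp. MpGH19.9 at the high end of 4 had 70.4%. MpGH16.42 had 10.4%, and MpGH93, MpGH17.15 and MpGH94 had 0%. What these overlaps come from was not tested.

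POD, a symbol used for peroxidases, had 7 of 149 genes at the ends, of which MpPOD159, MpPOD160 and MpPOD161 were neighbours at the high end of 7 with no exonic element bp. The others were MpPOD21, MpPOD38, MpPOD142 and MpPOD163, the last 2 with 11.8% and 14.6% of exonic bp in elements. C3H, a symbol of zinc finger proteins, had 7 of 35, each at a different end. They were MpC3H1, MpC3H13, MpC3H14, MpC3H19, MpC3H26, MpC3H36 and MpC3H34, and the same stem took in MpC4H1. The stem GT, used for glycosyltransferases, had 6 of 82 (MpGT29.3, MpGT34.1, MpGT61.4, MpGT47.11, MpGT77.5 and MpGT47.19). BHLH transcription factors had 5 of 46, with MpBHLH47 and MpBHLH48 adjacent at the low end of 2 and MpBHLH49, MpBHLH41 and MpBHLH28 elsewhere.

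Of the 4 Cupin genes among 97, MpCupin98 and MpCupin99 at the high end of 6 had 85.4% and 82.1% of their exonic bp in elements, whereas MpCupin46 and MpCupin93 had none. The stem CYP, cytochrome P450 enzymes, had 4 of 49 (MpCYP710A16, MpCYP97C24, MpCYP829J2 and MpCYP8290). A stem need not hold a whole gene family. MpCYP829-like21, MpCYP716-like23 and MpCYP813-like3 also lay at the ends and fell outside the stem CYP, as MpABCG9 and MpABCI9 fell outside the stem ABC. WRKY had 3 of 14, with MpWRKY13 and MpWRKY12 at the low end of 4 and MpWRKY1 at the low end of 3. RAB small GTPases, which direct membrane traffic, had 3 of 10 (MpRAB1B, MpRAB2B and MpRAB23), and Bromo 3 of 10 (MpBromo3, MpBromo4 and MpBromo11). The remaining stems each had 3 genes at the ends. They were 1R-MYB (Mp1R-MYB2, Mp1R-MYB20, Mp1R-MYB18), ABC (MpABC33, MpABC53, MpABC75), ACOS (MpACOS14, MpACOS22, MpACOS15), DOXC (MpDOXC22, MpDOXC28, MpDOXC38), GST (MpGST12, MpGST32, MpGST27), LEA-like (MpLEA-like9, MpLEA-like10, MpLEA-like17) and snf (Mpsnf1.9, Mpsnf1.12, Mpsnf1.17).

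Because the series concerned DNA methylation, 3 lists of genes were looked up at the ends. Of 12 DNA methylation symbols, 8 were matched on the autosomes and 2 lay at the ends. Over all symbols on the autosomes 7.03% lay at the ends, and 8 genes are too few to set against that share. MpDRMa (Mp1g00340), whose Arabidopsis counterparts set methylation anew, lay at chromosome 1, bases 466858 to 475520 on the minus strand, 466857 bp from the low end. It had 16 exons, 4 transcripts, a coding length of 2394 bp and 43 bp of element in the 1 kb upstream. MpCMTb (Mp6g21040), of the chromomethylases that in Arabidopsis methylate CHG sites, lay at chromosome 6, bases 23282879 to 23292020 on the plus strand, 569539 bp from the high end. It had 23 exons, 2 transcripts, a coding length of 2784 bp and 437 bp of element upstream. Neither gene had an element in its exons or introns.

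MpMET itself (Mp6g18180) lay in the interior of chromosome 6, 3580333 bp from the high end. Of 18 small RNA symbols 12 were matched and 0 lay at the ends. With 12 genes this cannot be told apart from the 7.03% over all symbols. MpAGO4b, one of the Argonaute proteins that bind small RNAs, came nearest at 1259091 bp. Matching was by exact symbol, and MpNRPE1b (Mp6g00230), noticed after the values were seen, lay 419760 bp from the low end of 6. In Arabidopsis NRPE1 is the largest subunit of a polymerase used in RNA-directed DNA methylation. Of 15 symbols for telomere and chromosome-end proteins 0 were matched, so that list gives no value.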

How the data were processed

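The 6 libraries were strand-specific and made from poly(A) RNA, as the labels' protocols say; Trim Galore and STAR are listed in the submitters' processing notes, and no counting step is named there. The values used are the first and last base of each feature in the 2 deposited GTF annotations (genes, and elements with EDTA named as the source of every row), counted from 1; the deposited score column held only dots. No column of either file held counts, so the planned edgeR test of expression was not made. No sequence was used.

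A gene was the span of its exons; bases under several copies counted 1 time. For each autosome both ends were pooled and set against the rest, and the 8 differences were tested by exact 2-sided sign-flip permutation (256 patterns, smallest p 0.0078125), adjusted by Benjamini-Hochberg over 14 measures, 17 superfamilies or 162 families. Symbols came from a RefSeq table of the assembly MpTak2_v7.1: 17624 genes were paired by locus number, 16479 (93.5%) of them within 5% of length, and only these were used. The table's coordinates were not used. Replicate error could not be given, since chromosomes, not libraries, were compared.

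Named were the gene and element nearest each end, the 10 longest genes, the 10 with most exonic element bp, the 5 families with most bp and the 5 with the largest share at the ends (20 or more end copies), symbol stems occurring 3 or more times, and members of 3 lists. The members, lists and measures were chosen with earlier results of these data known. Further families, the ranges of recurring spans and the set of 9 families were picked after values were seen. Alternatives were ends of 500 kb and 2 Mb, assignment by midpoint, single sides, other sets of genes and elements, each chromosome left out, and the outermost 200 kb left out. Computation used scipy 1.17.1, pandas 2.3.3, numpy 2.4.6 and, for the figures, matplotlib 3.10.9, under Python 3.11.15.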

Additional observations from a re-analysis of the deposited data

Results flagged for a closer look

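Values of 8 chromosomes were screened in 42 groups (low ends, high ends and the difference from the rest, for each measure) with Dixon's criterion for a value far from the others; chance marks about 1 in 20 groups, and 7 of 42 were marked. The low end of chromosome 6 stood apart with 49 coding genes per Mb, where the other low ends had 66 to 80. Among high ends, chromosome 7 stood apart with an element cover of 10.98%, where the others had 22.2% to 30.8%.

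Chromosome 1 gave the other 5. At its low end 46.0% of genes had an element within 1 kb upstream, against 10% to 16.3% at the other low ends. Its difference from the rest in that share was 18.1 percentage points, against -3.75 to 5.94 on the others. Genes without coding sequence were 35.5% of the genes of its low end, against 2% to 10.5%, with a difference from the rest of 22.9 percentage points, against -1.26 to 6.21. Its median element copy was 86 bp longer at the ends than in the rest, whereas it was shorter on the others, with differences of -59 to -8 bp. Copies of the 9 families rich at the ends covered 126 kb of this low end, and 41 of its 44 genes without coding sequence had most of their exonic bp in elements. The part of these copies in the other values was not tested.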

How the results depend on the processing

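No paired analysis was possible because no file holds a value of any library, so the expression comparison, with or without the replicate block, was not run. Coding genes per Mb stayed lower at the ends in all 7 settings (-22.8 to -7.82) and without each chromosome in turn (-15.2 to -11.8). The 2 sides differed in how firm this was. Low ends alone gave -17.1 coding genes per Mb (exact permutation, unadjusted p = 0.00781), and high ends alone -10.0 (exact permutation, unadjusted p = 0.141). Over 14 measures a lone measure at the smallest p cannot pass, so its adjusted p says nothing of stability. With ends of 500 kb the difference in median coding length was 139.5 bp and in structure-based share -0.200 points, and 0 superfamilies were called. With 2 Mb, copies per Mb differed by -10.7 and coding length by 13.5 bp, and 0 superfamilies were called. Low ends alone gave 10.5 bp for coding length and high ends alone -1.17 points for structure-based share. Without the outermost 200 kb, a setting added after seeing the data, the upstream share differed by -2.49 points, median span by -75.4 bp, exons by -0.133, the share of genes without coding sequence by -0.553 points and unknown-class cover by -0.603 points. The cause of these reversals was not tested. Leaving out each chromosome in turn gave -0.356 to 1.10 points for Gypsy cover, -21.2 to 13.5 bp for coding length, -36.4 to 134 bp for span and -1.25 to 0.937 points for structure-based share. None of the 14 measures passed the threshold in the reported setting. Without chromosome 1 alone, several differences shrank by over 1.5 times: element cover from 2.28 to 0.799 points, copies per Mb from 26.5 to 11.3, upstream share from 2.70 to 0.491 points and the share of genes without coding sequence from 4.42 to 1.79 points. With ends of 500 kb, median span (443.5 bp), exons (0.708) and upstream share (9.62 points) differed more than with 1 Mb.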

Other observations

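The ends of the male sex chromosome V, which were no members of the set described above, held 15 genes and a cover of 63.7% at the low end and 54 genes and 77.9% at the high end, against 13.9 genes per Mb and 58.4% in the rest of V. The high end carried 125 copies of the 12 families rich at autosome ends and the low end 43, against 38.4 per Mb in the rest of V. The outermost element of the high end was TE_00000006. TE_00000155, present at 14 autosome ends, had 0 copies at either end of V and 3 in the rest of it.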
